A study of Mus musculus with 26 samples.

Results

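Glucose uptake, glycolysis, lactate handling, the pentose phosphate pathway and the entry of pyruvate into mitochondria were followed through 36 named genes in S49 cells. A gene was taken as measured where a probe set of the array carried its symbol, current or older, and no other symbol, and the brightest such probe set stood for it. Of the 36 genes, 31 had such a probe set, among 12394 genes so named on the array, and 28 were at log2 5 or more on at least 3 arrays and were tested. S49 is a mouse T lymphoma line in which raised cyclic AMP (cAMP) stops division and leads to death, and the deathless variant, D-, survives it. Both lines were grown in suspension in medium with heat-inactivated horse serum. RNA was taken before or after treatment with 8-CPT-cAMP, an analogue of cAMP that crosses the cell membrane and switches on protein kinase A. The groups were D- cells untreated (4 arrays) and treated for 2, 6 or 24 h (3 arrays each), and WT cells untreated (4 arrays) and treated for 2, 6 or 24 h (3 arrays each). The titles of the treated WT samples call them untreated, whereas their source and description fields call them treated, which was followed here. The labels give a dose of 100 mM, whose unit may be an error. Untreated samples were all taken at time 0, so that hours in culture and hours of treatment cannot be told apart. Replicates are called biological in the labels without separate cultures being described, so the p-values speak of the spread among these samples, part of which may be technical.

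Glucose enters lymphoid cells through facilitative transporters, is trapped by hexokinase, and is broken down to pyruvate, with phosphofructokinase as the main point of control. Pyruvate is either reduced to lactate and exported or passed to the tricarboxylic acid cycle by pyruvate dehydrogenase. Part of the glucose phosphate enters the pentose phosphate pathway, which yields NADPH and ribose for nucleotides. Dividing and activated T cells are known for high glucose uptake and lactate output, and the transcription factors MYC and HIF-1 are known to act on many of these genes.

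Values are log2 of the deposited GCRMA intensity, compared only between arrays and never between probe sets. Changes were called at a limma adjusted p under 0.05 over all 12727 probe sets tested, and the same call over 7433 genes, each by its brightest probe set, is given as the background. Within groups the arrays correlated at 0.972 to 0.995 across probe sets, and the number of arrays limits the precision. The arrays fell into clusters of 10 and 16, with 38.8% of the spread within groups on the first axis, and the smaller one held replicate 1 of every group and replicate 2 of both untreated groups. The labels do not name these clusters. Several arrays stood high for the glucose genes. Untreated WT replicate 4 was the highest of its 4 arrays for 14 of the 28 genes, against 21.9% of all genes. D- 24 h replicate 2 was the highest of its 3 arrays for 17 of the 28, against 20.4% of all genes. Untreated WT replicate 4 and D- 24 h replicate 2 are called the pair of high arrays below. They were picked for being high on these same genes, so values without the pair are a description and not a test. D- 6 h replicate 3 (16 of 28, against 30.8% of all genes), WT 24 h replicate 2 (16 of 28, against 33.6%) and WT 6 h replicate 1 (15 of 28, against 38.2%) were also often the highest of their 3 arrays. T cell markers were at a group mean of log2 5 or more for 11 or 12 of 13 measured genes in every group. Their summed intensity was 30400 to 32950 in untreated D- cells, 17580 to 19510 at 2 h, 16290 to 19170 at 6 h and 35970 to 38890 at 24 h. In WT cells it was 27790 to 33040, 20700 to 23580, 20930 to 26150 and 33290 to 36230 at these times. Cd247, a T cell receptor chain, stayed between 4.42 and 4.63 in D- groups, against 9.05 to 10.25 in WT groups. Of 6 stromal and endothelial markers 1, Pecam1, was at 5 or more. The summed intensity of the list was 499.7 to 519 in D- cells at 24 h and 133 to 164.7 in untreated D- cells. It was 605.7 to 677.7 in WT cells at 24 h and 154.7 to 242.5 in untreated WT cells. The part of these markers in the results was not tested.

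The glucose genes did not move as a block. In D- cells 2 genes rose and 1 fell at 2 h, 6 rose and 4 fell at 6 h, and 4 rose and 5 fell at 24 h, of the 28. Of all genes 22.3% were called in D- cells at 2 h (9.05% higher and 13.3% lower), 31.8% at 6 h (16.2% and 15.6%) and 34.7% at 24 h (17.1% and 17.6%). In WT cells 2 rose and none fell at 2 h, 6 rose and 5 fell at 6 h, and 4 rose and 8 fell at 24 h, beside 25.1% of all genes at 2 h (11.2% higher and 13.9% lower), 38.2% at 6 h (19.1% each way) and 53.8% at 24 h (26.4% and 27.5%). Of the 3 genes called in D- and the 2 called in WT at 2 h, 2 were called in both lines. Of the 10 in D- and the 11 in WT at 6 h, 9 were called in both, and of the 9 in D- and the 12 in WT at 24 h, 9 were called in both, always in the same direction. The median change of the 28 genes was 0.14 at 2 h, 0.11 at 6 h and -0.06 at 24 h in D- cells, against a median of -0.02 over all genes at each time. In WT cells it was 0.06 at 2 h, 0.06 at 6 h and -0.24 at 24 h, against -0.01, -0.01 and 0.00 over all genes. The D- count at 6 h was 6 without D- 6 h replicate 3, and the WT count at 2 h was 1 without WT 2 h replicate 2. Without the pair of high arrays, 2 genes rose and 4 fell in D- cells at 24 h, and the counts in WT cells at 2, 6 and 24 h were the same as with them.

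**Figure D1:**
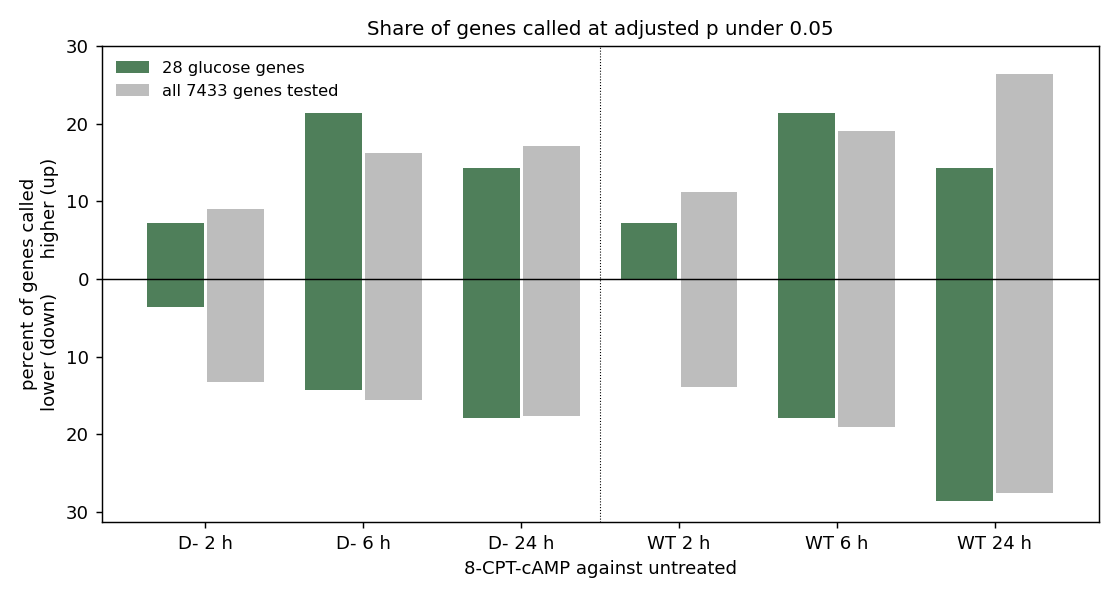
Percent of genes called higher (upward bars) or lower (downward bars) at a limma adjusted p under 0.05 in treated against untreated cells, for the 28 tested glucose genes (green) and for all 7433 genes tested (grey), by line and time. The green bars lie above the grey ones for genes called higher at 6 h, at 21.4% against 16.2% in D- cells and 21.4% against 19.1% in WT cells, and below them at 2 h. The 6 h gaps rest on few genes. Genes called higher at 6 h numbered 6 in each line, and 3 in D- cells without D- 6 h replicate 3 and 3 in WT cells without WT 6 h replicate 1.

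**Figure D2:**
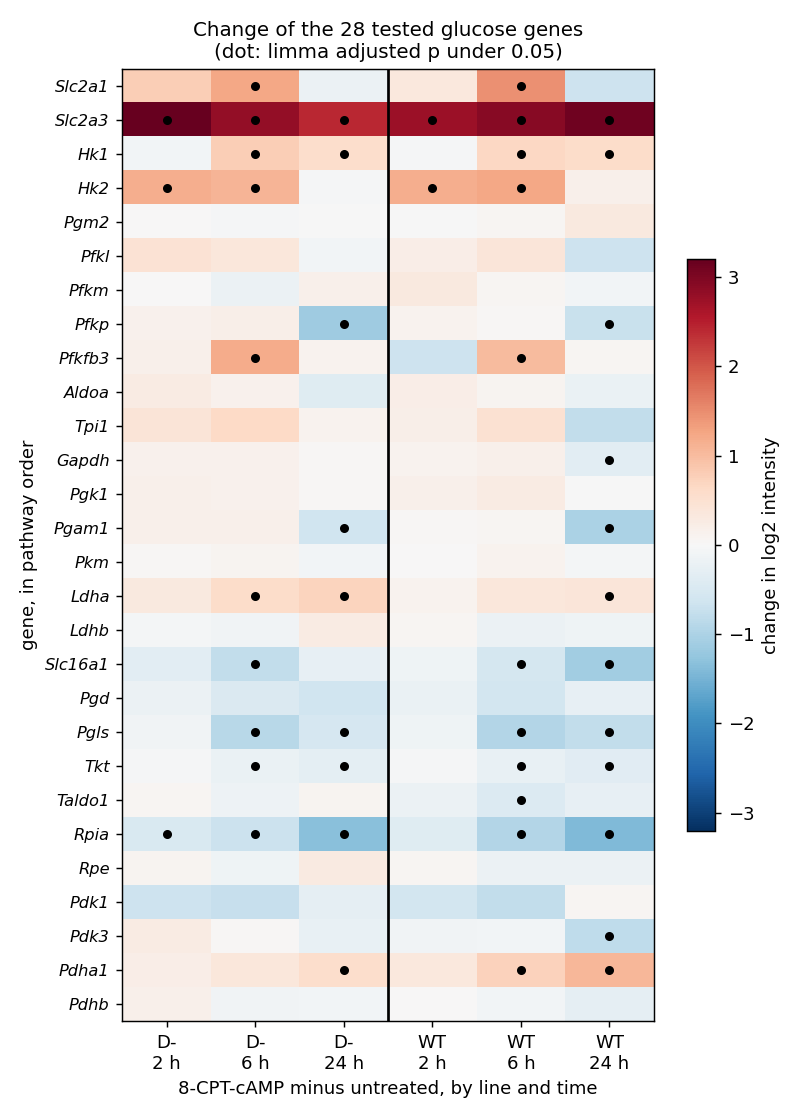
Change in log2 intensity of the 28 tested genes (rows, in pathway order) after 2, 6 and 24 h of 8-CPT-cAMP against untreated cells of the same line, D- columns left of WT columns. Red is higher and blue lower in treated cells, and dots mark calls at a limma adjusted p under 0.05. Slc2a3 is red at every time in both lines, Slc2a1, Hk2 and Pfkfb3 are dotted at 6 h and not at 24 h, and Rpia is blue throughout.

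Glucose transporters gave the largest rise among the 28 genes. Slc2a3 encodes GLUT3, a transporter of high affinity, and rose at every time in both lines. Slc2a1, which encodes GLUT1, the main transporter of proliferating T cells, was called higher at 6 h and at neither other time. On D- arrays Slc2a3 lay at 8.90, 8.68, 7.83 and 8.11 untreated, 11.79, 11.57 and 11.35 at 2 h, 11.31, 11.05 and 11.21 at 6 h, and 10.68, 11.22 and 10.51 at 24 h. The WT arrays were at 8.91, 8.70, 8.57 and 10.08 untreated, 11.41, 11.96 and 12.02 at 2 h, 11.80, 12 and 12.15 at 6 h, and 11.61, 12.50 and 12.37 at 24 h. Every treated array lay above every untreated array of its line, also above the high untreated WT replicate 4. In D- cells the fold rise was 9.11 at 2 h (log2 change 3.19 ± 0.31 SE, limma adjusted p = 8.16e-08), 7.01 at 6 h and 5.36 at 24 h (2.42 ± 0.31, adjusted p = 2.82e-06). In WT cells it was 6.66 at 2 h (2.73 ± 0.31, adjusted p = 7.09e-07), 7.57 at 6 h and 8.56 at 24 h (3.10 ± 0.31, adjusted p = 3.26e-08). Of its 3 other probe sets, a pair was too dim to be tested (at most 3.48), and the third gave log2 changes of 2.48 to 3.29 in D- cells and 2.71 to 3.23 in WT cells. The D- minus WT difference of response of Slc2a3 at 24 h was -0.67 ± 0.43 (adjusted p = 0.37) with all arrays, and -1.22 without the pair of high arrays. Each array of the pair was the highest of its group for Slc2a3, so leaving them out could only make this difference more negative. Since whole cultures were measured, a change in the share of a kind of cell and a change in RNA per cell cannot be told apart.

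Slc2a1 lay at 10.10, 9.79, 10.15 and 9.72 on untreated D- arrays, at 10.80, 10.69 and 10.66 at 2 h, at 10.96, 11.04 and 11.53 at 6 h, and at 9.62, 10.34 and 9.30 at 24 h. WT arrays gave 10.13, 9.60, 9.68 and 11.77 untreated, at 10.37, 10.71 and 10.79 at 2 h, at 12.32, 11.04 and 11.92 at 6 h, and at 8.78, 10.50 and 9.61 at 24 h. The D- arrays at 2 and 6 h lay above all untreated D- arrays, and those at 24 h overlapped them. In WT cells untreated replicate 4 lay above 1 of the 6 h arrays and above every 2 and 24 h array. At 6 h Slc2a1 rose 2.36-fold in D- cells (log2 change 1.24 ± 0.42, limma adjusted p = 0.0295) and 2.76-fold in WT cells (1.47 ± 0.42, adjusted p = 0.00913). From 6 to 24 h it fell by 1.42 in D- cells (adjusted p = 0.0366) and by 2.13 in WT cells (adjusted p = 0.000987), on the log2 scale. At 24 h the changes against untreated cells were -0.18 ± 0.42 in D- cells and -0.67 ± 0.42 in WT cells, neither called. The WT change was called without WT 24 h replicate 2 (-1.10, adjusted p = 0.0489), with array weights (-1.02, adjusted p = 0.0139) and by the next brightest probe set (-1.04, adjusted p = 0.0331). Its 2 other probe sets gave changes of 1.41 and 1.38 in D- cells and of 1.46 and 1.66 in WT cells at 6 h, all called. The D- call at 6 h was lost without untreated replicate 2 or 4 or 6 h replicate 2 or 3 (changes of 1.06 to 1.31, adjusted p up to 0.126). The WT call was lost without 6 h replicate 1 (1.19, adjusted p = 0.0544). Within the larger cluster of arrays the WT change was 0.76 (adjusted p = 0.329). Without the pair of high arrays the WT change was 1.96, and it could only grow, since untreated WT replicate 4 was the highest untreated WT array. The fall of Slc2a1 in D- cells from 6 to 24 h was called in 1 of the 6 fits that left out an array, that without D- 24 h replicate 2. It was -1.72 without the pair of high arrays, and could only deepen, since D- 24 h replicate 2 was the highest D- 24 h array. It was -1.53, -1.49, -1.25, -1.36 and -1.20 without D- 6 h replicates 1, 2 and 3 and D- 24 h replicates 1 and 3.

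**Figure D3:**
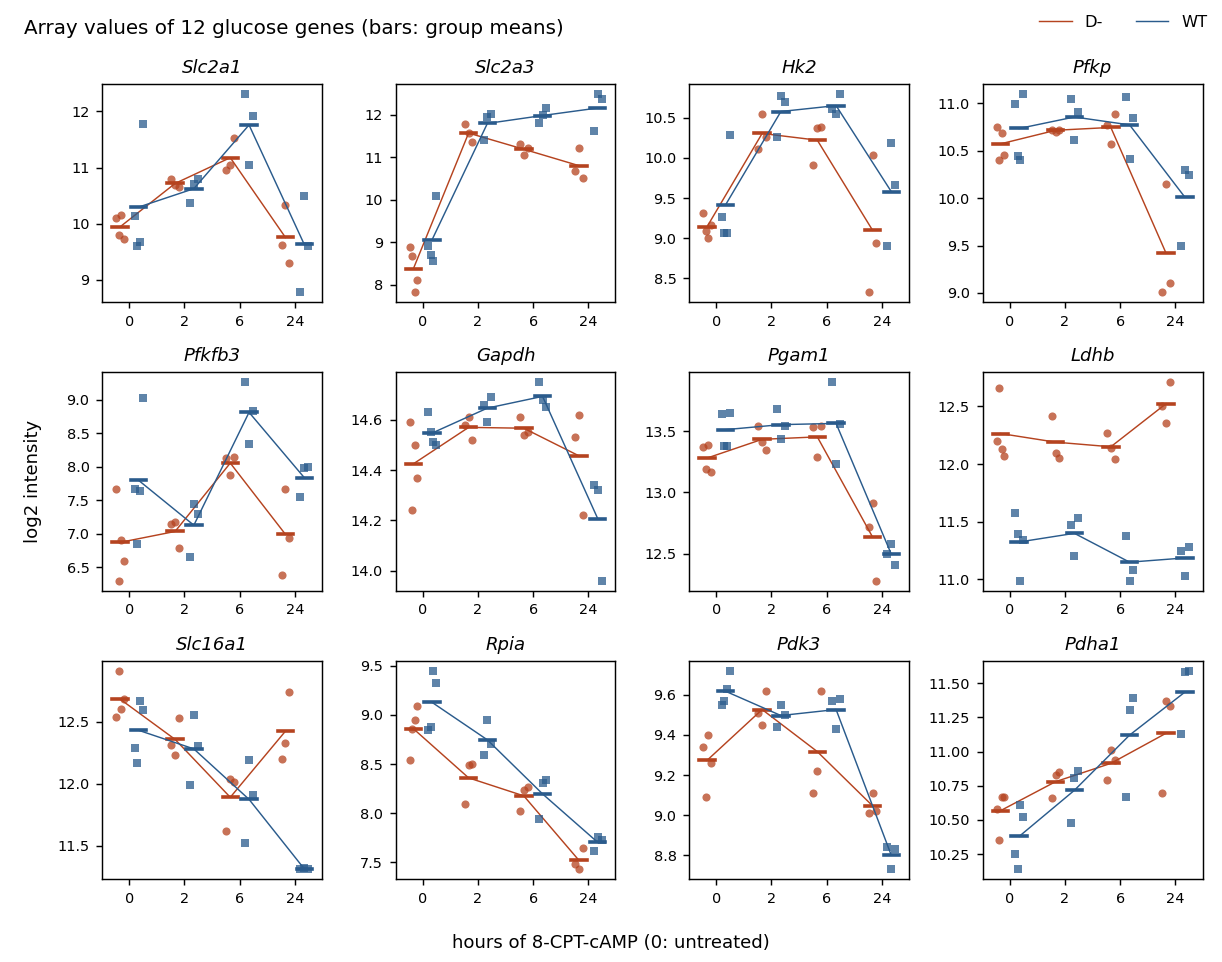
Log2 intensity on every array for 12 glucose genes against hours of 8-CPT-cAMP (0 is untreated), D- as circles left of WT as squares, with bars at group means joined by lines. The panels show the 9 genes with a called change of at least 1 on the log2 scale against untreated cells, Gapdh, and Ldhb and Pdk3, which differed between the lines. Slc2a3 stays high to 24 h, the group means of Slc2a1 and Hk2 at 24 h lie near or below those of untreated cells, and Rpia declines in both lines.

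Hexokinases rose in both lines, Hk2 early and Hk1 later. Hk2, the inducible hexokinase of growing cells, lay at 9.31, 9.09, 9.0 and 9.16 on untreated D- arrays, at 10.11, 10.54 and 10.26 at 2 h, at 9.91, 10.37 and 10.38 at 6 h, and at 8.33, 10.03 and 8.94 at 24 h. Its WT values were 9.26, 9.07, 9.06 and 10.28 untreated, at 10.26, 10.77 and 10.70 at 2 h, at 10.61, 10.54 and 10.80 at 6 h, and at 8.90, 10.18 and 9.66 at 24 h. The 2 and 6 h arrays of both lines lay above all untreated arrays of their line, except WT 2 h replicate 1, which lay just below untreated WT replicate 4. Hk2 rose 2.24-fold at 2 h in D- cells (log2 change 1.16 ± 0.33, limma adjusted p = 0.0131) and 2.23-fold in WT cells (1.16 ± 0.33, adjusted p = 0.0115). At 6 h it was 2.12-fold higher in D- cells (adjusted p = 0.0152) and 2.35-fold higher in WT cells (adjusted p = 0.00533). At 24 h the changes were -0.04 ± 0.33 in D- cells and 0.16 ± 0.33 in WT cells, not called. The falls from 6 to 24 h were called, at -1.12 in D- cells (adjusted p = 0.0339) and -1.07 in WT cells (adjusted p = 0.0235). The 2 h call of Hk2 was lost without replicate 2 at 2 h in either line (adjusted p = 0.0664 in D- and 0.0535 in WT), and the D- 6 h call without 6 h replicate 2 or 3 (1.01 and 1.0, adjusted p = 0.0614 and 0.0624). The falls were lost without D- 6 h replicate 2 or 3 or D- 24 h replicate 1 or 3 (-1.05, -1.04, -0.74 and -1.05), and without WT 6 h replicate 3 or WT 24 h replicate 1 (-1.0 and -0.73).

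Hk1, the housekeeping hexokinase bound to mitochondria, averaged 9.39 ± 0.27 untreated, 9.31 ± 0.16 at 2 h, 10.17 ± 0.32 at 6 h and 9.94 ± 0.31 at 24 h in D- cells (SD, n = 4 and then 3). In WT cells it averaged 9.90 ± 0.13, 9.87 ± 0.23, 10.55 ± 0.33 and 10.49 ± 0.09 at the same times. It was called higher at 6 h (log2 change 0.78 in D- and 0.66 in WT cells, limma adjusted p = 0.00207 and 0.00635) and at 24 h (0.55 and 0.59, adjusted p = 0.0219 and 0.00837), not at 2 h. By its next brightest probe set the 24 h changes were 0.56 in D- cells (adjusted p = 0.069) and 0.39 in WT cells (adjusted p = 0.169), not called. The D- 24 h call of Hk1 was lost without D- untreated replicate 3 or 4 or D- 24 h replicate 2 (0.50, 0.48 and 0.37), and the WT 6 h call without WT 6 h replicate 1 (0.49, adjusted p = 0.052). Pgm2, a phosphoglucomutase that works on sugar phosphates, was not called at any time, with changes between -0.04 and 0.30.

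Phosphofructokinase subunits and the enzyme that sets their activator moved at different times. Pfkfb3 makes the fructose bisphosphate that activates phosphofructokinase. It lay at 7.67, 6.30, 6.91 and 6.60 on untreated D- arrays, at 7.15, 7.17 and 6.78 at 2 h, at 8.13, 7.88 and 8.15 at 6 h, and at 6.38, 7.66 and 6.93 at 24 h. On WT arrays it lay at 7.67, 6.85, 7.64 and 9.02 untreated, at 6.65, 7.44 and 7.29 at 2 h, at 9.26, 8.34 and 8.83 at 6 h, and at 7.54, 7.98 and 7.99 at 24 h. All D- 6 h arrays lay above the untreated D- arrays, and in WT cells untreated replicate 4 lay above 2 of the 3 arrays at 6 h. Pfkfb3 rose 2.27-fold at 6 h in D- cells (log2 change 1.18 ± 0.39, limma adjusted p = 0.0234) and 2.02-fold in WT cells (1.01 ± 0.39, adjusted p = 0.0444). The step from 2 to 6 h was 1.02 in D- cells (adjusted p = 0.0808) and 1.68 in WT cells (adjusted p = 0.00607). The D- 6 h call of Pfkfb3 was lost without untreated replicate 2 or 4 or 6 h replicate 1 or 3 (0.99 to 1.15, adjusted p up to 0.0765). The WT 6 h call was lost without WT untreated replicate 1, 2 or 3 or WT 6 h replicate 1 or 3 (0.97, 0.70, 0.96, 0.79 and 1.01), with array weights (0.60) and within the larger cluster of arrays (0.26). Without the pair of high arrays the WT 6 h change was 1.42, and it could only grow, since untreated WT replicate 4 was the highest untreated WT array.

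Pfkp, the platelet-type subunit, lay at 10.75, 10.40, 10.68 and 10.45 on untreated D- arrays, at 10.72, 10.70 and 10.72 at 2 h, at 10.77, 10.57 and 10.89 at 6 h, and at 9.01, 10.15 and 9.10 at 24 h. The WT arrays were at 10.99, 10.44, 10.40 and 11.10 untreated, at 11.04, 10.61 and 10.91 at 2 h, at 11.06, 10.41 and 10.84 at 6 h, and at 9.49, 10.30 and 10.24 at 24 h. At 24 h every array lay below the untreated arrays of its line, and at 2 and 6 h the groups overlapped. Pfkp fell at 24 h to 0.45 of its untreated level in D- cells (log2 change -1.15 ± 0.24, limma adjusted p = 0.000894) and to 0.607 in WT cells (-0.72 ± 0.24, adjusted p = 0.017). The WT call was lost without WT untreated replicate 1 or 4 or WT 24 h replicate 1 (-0.64, -0.60 and -0.46, adjusted p = 0.0506, 0.0592 and 0.141). Pfkl, the liver-type subunit, was not called against untreated cells, with changes of 0.47, 0.36 and -0.09 at 2, 6 and 24 h in D- cells and 0.20, 0.38 and -0.66 in WT cells. The WT 24 h change of Pfkl was called without WT untreated replicate 2 (-0.87, adjusted p = 0.02) or WT 24 h replicate 2 (-0.91, adjusted p = 0.0279). Pfkm, the muscle-type subunit, lay near the filter at 4.74 to 5.93 and was not called.

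The middle and lower steps of glycolysis gave no call before 24 h. Of their 6 tested genes (Aldoa, Tpi1, Gapdh, Pgk1, Pgam1 and Pkm), none was called at 2 or 6 h in either line. Of all genes 22.3% and 31.8% were called at these times in D- cells and 25.1% and 38.2% in WT cells. At 24 h 1 fell in D- cells and 2 fell in WT cells, beside 17.6% and 27.5% of all genes called lower. Pgam1, phosphoglycerate mutase, lay at 13.37, 13.19, 13.39 and 13.17 on untreated D- arrays, at 13.54, 13.41 and 13.35 at 2 h, at 13.53, 13.29 and 13.54 at 6 h, and at 12.72, 12.91 and 12.28 at 24 h. WT arrays gave 13.64, 13.38, 13.38 and 13.65 untreated, at 13.68, 13.44 and 13.54 at 2 h, at 13.90, 13.23 and 13.56 at 6 h, and at 12.50, 12.58 and 12.41 at 24 h. The 24 h arrays lay below every other array of their line. Pgam1 fell to 0.641 of the untreated level in D- cells (log2 change -0.64 ± 0.14, limma adjusted p = 0.00145) and to 0.494 in WT cells (-1.02 ± 0.14, adjusted p = 3.91e-06), and no array left out ended these calls.

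Gapdh, the glyceraldehyde phosphate dehydrogenase often used as a loading control, was carried by 3 control probe sets of the array. The brightest of them, that for the 5' end of the transcript, was used. It lay at 14.59, 14.24, 14.50 and 14.37 on untreated D- arrays, at 14.58, 14.61 and 14.52 at 2 h, at 14.61, 14.54 and 14.55 at 6 h, and at 14.53, 14.62 and 14.22 at 24 h. Its WT values were 14.63, 14.55, 14.51 and 14.50 untreated, at 14.66, 14.59 and 14.69 at 2 h, at 14.75, 14.68 and 14.65 at 6 h, and at 14.34, 14.32 and 13.96 at 24 h. The WT 24 h arrays lay below all other WT arrays, and the D- groups overlapped. Gapdh fell by 0.34 on the log2 scale in WT cells at 24 h (SE 0.10, limma adjusted p = 0.00896), and by 0.22 (adjusted p = 0.105) without WT 24 h replicate 3. The other control probe sets of Gapdh gave -0.19 and -0.22, neither called. The difference between the probe sets at its ends (3' minus 5'), a sign of RNA integrity, was 0.096 ± 0.196 in WT cells at 24 h and -0.053 ± 0.147 in untreated WT cells (SD, log2), and its part in the fall was not tested. Aldoa, aldolase A, Pgk1, phosphoglycerate kinase, and Pkm, the muscle-type pyruvate kinase, were not called, with changes between -0.39 and 0.25. The D- 24 h change of Aldoa, -0.39 (limma adjusted p = 0.145), was -0.64 (adjusted p = 0.0205) and called without D- 24 h replicate 2, and also -0.64 without the pair of high arrays. D- 24 h replicate 2 was the highest D- 24 h array for Aldoa, so leaving it out could only deepen the change. Tpi1, triosephosphate isomerase, changed by 0.40, 0.63 and 0.12 in D- cells and by 0.18, 0.48 and -0.79 in WT cells at 2, 6 and 24 h, not called. The WT 24 h change was called without WT untreated replicate 3 (-0.98, adjusted p = 0.0327). Aldoc, Eno2 and Slc16a3 were dim on all arrays, at 2.99 to 3.29, 2.28 to 2.63 and 3.92 to 4.49, and were not tested.

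Lactate genes split by step. Ldha, the subunit that favours lactate formation, averaged 13.57 ± 0.21 untreated, 13.89 ± 0.11 at 2 h, 14.14 ± 0.28 at 6 h and 14.27 ± 0.33 at 24 h in D- cells (SD, n = 4 and then 3), and 13.78 ± 0.06, 13.89 ± 0.05, 14.15 ± 0.08 and 14.16 ± 0.23 in WT cells. It was called higher in D- cells at 6 h (1.49-fold, limma adjusted p = 0.0045) and 24 h (1.62-fold, adjusted p = 0.000795) and in WT cells at 24 h (1.30-fold, adjusted p = 0.0356). The WT change at 6 h was 0.37 (adjusted p = 0.0528). The WT 24 h call of Ldha was lost without WT untreated replicate 1, 2 or 3 or WT 24 h replicate 2 or 3 (0.39, 0.36, 0.35, 0.29 and 0.33), and on median-centred arrays (0.35, adjusted p = 0.0565). Ldhb, the subunit that favours the return of lactate to pyruvate, was not called against untreated cells of either line, except in D- cells at 24 h when D- untreated replicate 2 was left out (0.39, adjusted p = 0.0477, against 0.26 with it).

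Slc16a1, the lactate and pyruvate transporter MCT1, lay at 12.54, 12.91, 12.60 and 12.68 on untreated D- arrays, at 12.31, 12.23 and 12.53 at 2 h, at 11.62, 12.04 and 12.01 at 6 h, and at 12.20, 12.33 and 12.74 at 24 h. On WT arrays it lay at 12.29, 12.17, 12.67 and 12.59 untreated, at 11.99, 12.55 and 12.30 at 2 h, at 11.52, 12.19 and 11.91 at 6 h, and at 11.31, 11.32 and 11.31 at 24 h. The D- arrays were lowest at 6 h and overlapped the untreated ones at 24 h, whereas the WT arrays were lowest at 24 h. Slc16a1 fell at 6 h in D- cells (log2 change -0.80 ± 0.17, limma adjusted p = 0.00108) and in WT cells (-0.56 ± 0.17, adjusted p = 0.0134), the WT call being lost without WT 6 h replicate 1 (-0.38). At 24 h it was not called in D- cells and fell to 0.461 of the untreated level in WT cells (-1.12 ± 0.17, adjusted p = 9.63e-06).

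Some genes of both branches of the pentose phosphate pathway fell at 6 and 24 h. They were 1 of 2 (Pgls) in the oxidative branch and, at 24 h, 2 of 4 in the non-oxidative branch in each line. Of all genes 15.6% in D- and 19.1% in WT cells were called lower at 6 h, and 17.6% and 27.5% at 24 h. So few tested genes say little of a branch as a whole. The first committed step of the pathway, G6pdx, had no probe set listed under that symbol and was not analysed here. Pgls, the lactonase that follows it, averaged 9.33 ± 0.11 untreated, 9.21 ± 0.12 at 2 h, 8.45 ± 0.26 at 6 h and 8.81 ± 0.31 at 24 h in D- cells, and 9.46 ± 0.16, 9.33 ± 0.12, 8.52 ± 0.39 and 8.67 ± 0.35 in WT cells (SD, n = 4 and then 3). It fell at 6 h to 0.543 of the untreated level in D- cells (limma adjusted p = 0.000632) and to 0.521 in WT cells (adjusted p = 0.000269), and at 24 h to 0.694 (adjusted p = 0.0252) and 0.578 (adjusted p = 0.00069). The D- 24 h call of Pgls was lost without D- untreated replicate 3 or D- 24 h replicate 2 or 3 (-0.48, -0.50 and -0.39). Pgd, the NADPH-forming phosphogluconate dehydrogenase, was not called by its brightest probe set, at -0.46 and -0.64 in D- cells and -0.58 and -0.26 in WT cells at 6 and 24 h. In D- cells at 24 h 3 other probe sets of Pgd were called lower, at -0.79, -0.71 and -0.70. Its brightest probe set was called at D- 24 h without D- untreated replicate 3 (-0.76), and at WT 6 h without WT untreated replicate 3 (-0.74) or WT 6 h replicate 1 (-0.87).

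In the non-oxidative branch Rpia, the isomerase that forms ribose 5-phosphate, showed the deepest fall. It lay at 8.54, 8.86, 8.95 and 9.09 on untreated D- arrays, at 8.09, 8.49 and 8.50 at 2 h, at 8.02, 8.24 and 8.27 at 6 h, and at 7.48, 7.43 and 7.65 at 24 h. The WT arrays were at 8.85, 8.88, 9.45 and 9.33 untreated, at 8.59, 8.95 and 8.70 at 2 h, at 7.94, 8.31 and 8.34 at 6 h, and at 7.62, 7.76 and 7.73 at 24 h. At 6 and 24 h every array of either line lay below its untreated arrays, which at 2 h held in D- cells only. In D- cells Rpia fell to 0.708 of the untreated level at 2 h (log2 change -0.50 ± 0.16, limma adjusted p = 0.0266), 0.624 at 6 h (adjusted p = 0.00223) and 0.396 at 24 h (-1.34 ± 0.16, adjusted p = 1.15e-06). In WT cells the change at 2 h was -0.38 (adjusted p = 0.0875; -0.47, adjusted p = 0.0416, without WT untreated replicate 1), and Rpia fell to 0.525 at 6 h (adjusted p = 9.18e-05) and 0.373 at 24 h (-1.42 ± 0.16, adjusted p = 1.6e-07). The D- 2 h call of Rpia was lost without D- untreated replicate 2, 3 or 4 or D- 2 h replicate 1 (-0.50, -0.47, -0.42 and -0.36), and the 2 h difference between the lines was not called.

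Tkt, transketolase, fell by small amounts, to 0.857 of the untreated level at 6 h and 0.806 at 24 h in D- cells (limma adjusted p = 0.042 and 0.00506) and to 0.852 and 0.777 in WT cells (adjusted p = 0.0307 and 0.00069). Every treated array of Tkt at these times lay below the untreated arrays of its line. Its D- 6 h call was lost in 6 of the 7 fits that left out an array, all but that without D- untreated replicate 1, with changes of -0.25 to -0.19. Its WT 6 h call was lost without WT untreated replicate 3 or 4 or WT 6 h replicate 2 or 3 (-0.22, -0.22, -0.22 and -0.20), and its D- 24 h call was lost without D- 24 h replicate 2 (-0.23). Taldo1, transaldolase, fell by 0.44 in WT cells at 6 h (adjusted p = 0.0309), a call lost without WT untreated replicate 1 or 2 or WT 6 h replicate 2 or 3 (-0.39, -0.38, -0.31 and -0.33). Rpe, the epimerase, was not called, with changes between -0.20 and 0.29.

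At the entry to mitochondria Pdha1, the catalytic subunit of pyruvate dehydrogenase, rose. It lay at 10.58, 10.35, 10.67 and 10.67 on untreated D- arrays, at 10.66, 10.83 and 10.85 at 2 h, at 10.79, 11.01 and 10.94 at 6 h, and at 10.70, 11.37 and 11.33 at 24 h. WT arrays gave 10.25, 10.14, 10.61 and 10.52 untreated, at 10.48, 10.81 and 10.86 at 2 h, at 10.67, 11.30 and 11.39 at 6 h, and at 11.13, 11.58 and 11.59 at 24 h. All arrays at 6 and 24 h lay above the untreated arrays of their line. Pdha1 rose 1.49-fold in D- cells at 24 h (log2 change 0.57 ± 0.18, limma adjusted p = 0.0172), and in WT cells 1.67-fold at 6 h (adjusted p = 0.00272) and 2.07-fold at 24 h (1.05 ± 0.18, adjusted p = 3.9e-05). The D- call of Pdha1 was lost without D- untreated replicate 2 or D- 24 h replicate 2 or 3 (0.50, 0.45 and 0.47), and its other probe set was called higher in D- cells at 2, 6 and 24 h (0.46, 0.55 and 0.50). Pdhb, the partner subunit, and Pdk1, a kinase that switches the complex off, were not called. Pdk1 changed by -0.67, -0.75 and -0.30 in D- cells and by -0.60, -0.80 and 0.06 in WT cells at 2, 6 and 24 h, with adjusted p = 0.0816 in D- and 0.0549 in WT cells at 6 h. Its 6 h change was called in D- cells without D- untreated replicate 3 (-0.92), and in WT cells without WT untreated replicate 2 (-1.0) or WT 6 h replicate 1 (-1.13). Pdk3, another kinase of the complex, averaged 9.27 ± 0.14 untreated, 9.52 ± 0.08 at 2 h, 9.32 ± 0.27 at 6 h and 9.04 ± 0.05 at 24 h in D- cells, and 9.62 ± 0.08, 9.50 ± 0.06, 9.53 ± 0.08 and 8.80 ± 0.06 in WT cells (SD, n = 4 and then 3). It fell to 0.568 of the untreated level in WT cells at 24 h (adjusted p = 7.32e-07). In D- cells the 24 h change of Pdk3 was -0.23, and -0.29 (adjusted p = 0.0387) without D- untreated replicate 2.

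Untreated D- and WT cells differed in 2 of the 28 genes, 1 higher and 1 lower in D- cells, beside 4.99% of all genes (1.9% higher and 3.09% lower). Ldhb averaged 12.26 ± 0.27 in untreated D- cells and 11.33 ± 0.25 in untreated WT cells (SD, n = 4 each), a 1.92-fold difference (limma adjusted p = 0.000195). Every D- array at each of the 4 times lay above every WT array. Its 3 other probe sets gave log2 differences of 0.70, 0.84 and 0.68, all called. Pdk3 was lower in untreated D- cells (log2 difference -0.34 ± 0.09, adjusted p = 0.0387), a call lost in 7 of the 8 fits that left out an array, all but that without D- untreated replicate 3, with differences of -0.37 to -0.28. The median difference of the 28 genes was -0.19, against 0.00 over all genes.

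The response to 8-CPT-cAMP of the glucose genes did not differ detectably between the lines at 2 and 6 h. None of the 28 genes was called by limma for an interaction of line and treatment at either time, with 1 at 2 h and none at 6 h at an unadjusted p under 0.05. This stands beside 0.242% of all genes called at 2 h (0.0538% higher and 0.188% lower) and 0.592% at 6 h (0.148% and 0.444%). At 24 h 2 were called, beside 12.3% of all genes (7.32% higher and 4.99% lower), and both had fallen further in WT than in D- cells. Slc16a1 had a difference of response of 0.85 ± 0.24 on the log2 scale (limma adjusted p = 0.0221), from -1.12 in WT cells and a change in D- cells that was not called. This call was lost without D- 24 h replicate 3 (0.70, adjusted p = 0.074), without WT 24 h replicate 2 (0.86, adjusted p = 0.0507) and without the pair of high arrays (0.85, adjusted p = 0.0507). Pdk3 had a difference of 0.59 ± 0.14 (adjusted p = 0.00874), of which 0.34 was its lower level in untreated D- cells. Without the pair of high arrays 2 genes were called, Pdk3 higher and Slc2a3 lower, the latter in the direction set by the choice of the pair. The median difference of the 28 genes at 24 h was 0.14, against -0.01 over all genes.

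**Figure D4:**
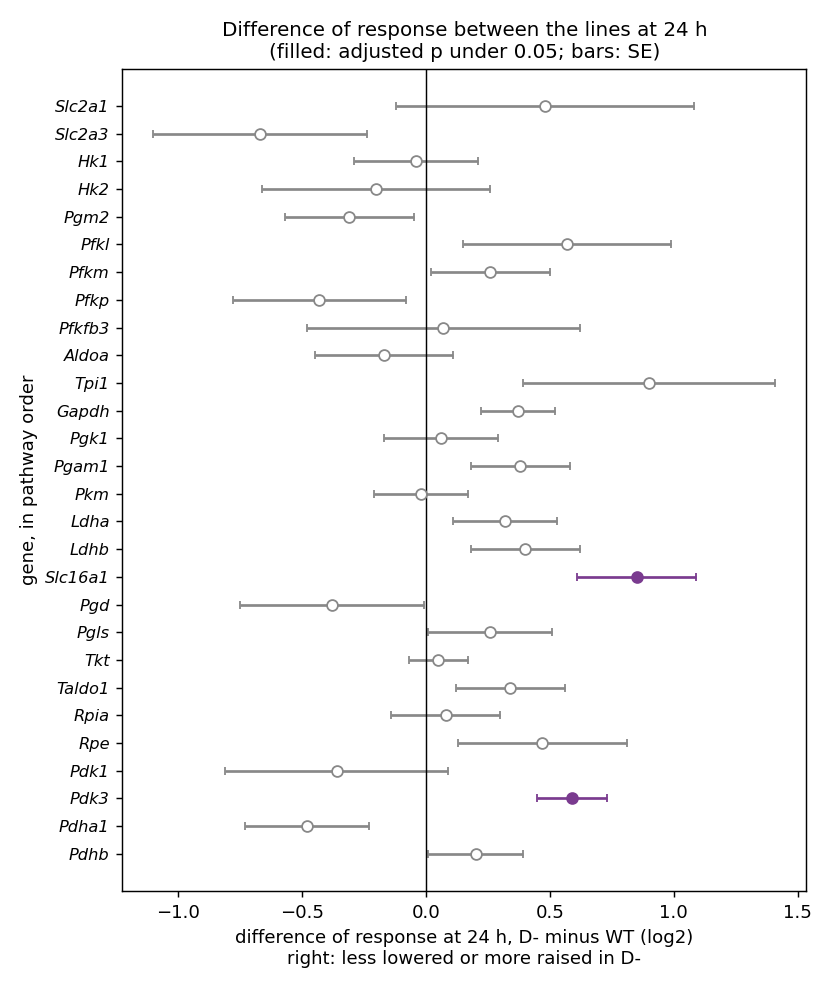
D- minus WT difference of the change from untreated to 24 h for the 28 genes in pathway order (log2 scale, points with SE bars), with filled points at a limma adjusted p under 0.05. Slc16a1, at 0.85, and Pdk3, at 0.59, are the filled points, and Tpi1, at 0.90 with a wider bar, is open.

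Between treated times, 1 gene rose (Hk1) and 1 fell (Pgls) in D- cells from 2 to 6 h, beside 23.6% of all genes (14.4% higher and 9.22% lower), and 2 rose (Hk1 and Pfkfb3) and 2 fell (Pgls and Rpia) in WT cells, beside 21.6% (12.6% and 9.04%). With the replicate number as a block, 1 rose and 3 fell in D- cells from 2 to 6 h. On median-centred arrays also 1 rose and 3 fell. The block was fitted over all arrays, including the untreated ones, whose numbers do not pair with those of treated arrays throughout. The blocked adjusted p-values are therefore not those of a paired test of the treated times alone. The block added falls of Slc16a1 (-0.47, limma adjusted p = 0.0264) and Pdhb (-0.28, adjusted p = 0.0366). Without WT 2 h replicate 2 the WT count from 2 to 6 h was 2. From 6 to 24 h all changes called without the block were falls, 5 of 28 in D- cells (Slc2a1, Hk2, Pfkp, Pgam1 and Rpia), beside 16.1% of all genes (8.09% higher and 8.03% lower), and 10 of 28 in WT cells, beside 32.4% (15.5% and 17%). The 10 in WT cells were these 5 with Pfkl, Tpi1, Gapdh, Slc16a1 and Pdk3. With the replicate block 1 gene rose and 5 fell in D- cells from 6 to 24 h, the rise being that of Slc16a1 (0.53, limma adjusted p = 0.0178, against 0.0523 without the block). The rise of Slc16a1 was also called on median-centred arrays (adjusted p = 0.022) and with the stricter filter (adjusted p = 0.0449). In WT cells the blocked counts were 3 higher and 2 lower from 2 to 6 h, and 0 higher and 10 lower from 6 to 24 h. Tpi1 fell by 1.27 on the log2 scale in WT cells over this step (limma adjusted p = 0.0143) and Pfkl by 1.04 (adjusted p = 0.0171). Leaving out 1 array took the D- count to between 3 and 7 and the WT count to between 5 and 10, the lowest WT count being that without WT 6 h replicate 3. The D- count was 3 without D- 6 h replicate 2 or 3 or D- 24 h replicate 3, and the WT count was 6 without WT 24 h replicate 1 or 3.

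Promoter windows of the genes were read from RefSeq (GRCm38.p6), as the 250 bases before the listed start of transcription. A window is shown of each gene called higher at 6 h in D- cells that had one (Hk2, Slc2a1, Pfkfb3, Ldha and Hk1), and of 2 of the 4 called lower (Slc16a1 and Rpia), chosen after the values were seen. Capitals mark ACGTG, a form of the core letters bound by HIF-1, and TGACG, the core of a cAMP response element, on either strand. The other form, GCGTG, was not searched for and is neither marked nor counted.
Hk2, chr6:82774455-82774704, minus strand: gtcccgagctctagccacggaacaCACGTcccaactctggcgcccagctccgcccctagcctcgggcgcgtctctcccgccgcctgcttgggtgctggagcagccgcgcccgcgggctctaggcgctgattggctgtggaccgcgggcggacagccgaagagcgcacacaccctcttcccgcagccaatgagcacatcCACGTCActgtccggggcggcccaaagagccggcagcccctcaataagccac
Slc2a1, chr4:119108495-119108744, plus strand: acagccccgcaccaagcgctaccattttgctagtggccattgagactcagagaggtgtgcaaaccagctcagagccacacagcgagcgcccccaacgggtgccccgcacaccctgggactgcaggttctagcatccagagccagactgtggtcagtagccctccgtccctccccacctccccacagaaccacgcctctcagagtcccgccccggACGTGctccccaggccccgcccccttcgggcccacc
Pfkfb3, chr2:11553930-11554179, minus strand: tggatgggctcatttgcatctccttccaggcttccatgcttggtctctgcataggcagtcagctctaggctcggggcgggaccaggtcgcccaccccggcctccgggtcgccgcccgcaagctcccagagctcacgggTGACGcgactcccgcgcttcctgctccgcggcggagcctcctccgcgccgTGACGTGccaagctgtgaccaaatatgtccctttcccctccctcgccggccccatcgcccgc
Ldha, chr7:46845554-46845803, plus strand: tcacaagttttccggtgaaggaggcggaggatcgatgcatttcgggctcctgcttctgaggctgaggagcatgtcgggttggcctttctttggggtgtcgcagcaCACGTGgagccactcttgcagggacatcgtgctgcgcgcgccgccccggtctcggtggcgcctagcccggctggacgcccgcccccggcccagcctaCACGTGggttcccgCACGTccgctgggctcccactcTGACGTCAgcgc
Hk1, chr10:62340422-62340671, minus strand: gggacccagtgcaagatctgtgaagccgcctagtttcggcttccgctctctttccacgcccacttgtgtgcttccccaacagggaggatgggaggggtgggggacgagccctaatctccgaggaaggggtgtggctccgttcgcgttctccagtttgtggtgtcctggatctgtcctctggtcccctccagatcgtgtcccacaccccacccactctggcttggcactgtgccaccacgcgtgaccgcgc
Slc16a1, chr3:104638414-104638663, plus strand: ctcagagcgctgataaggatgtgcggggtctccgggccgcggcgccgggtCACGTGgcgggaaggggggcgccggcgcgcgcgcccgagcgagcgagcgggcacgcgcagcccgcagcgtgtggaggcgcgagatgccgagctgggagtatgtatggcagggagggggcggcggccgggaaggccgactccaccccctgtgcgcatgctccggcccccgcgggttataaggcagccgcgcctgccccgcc
Rpia, chr6:70792176-70792425, minus strand: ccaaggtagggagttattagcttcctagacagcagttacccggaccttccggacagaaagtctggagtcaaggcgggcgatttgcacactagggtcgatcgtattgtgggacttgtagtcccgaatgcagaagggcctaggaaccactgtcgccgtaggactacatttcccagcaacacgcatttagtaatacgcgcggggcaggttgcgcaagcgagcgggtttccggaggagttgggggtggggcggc
The Hk2 window held ACGTG at -226 and -52 from the start and TGACG at -50, the last sharing bases with its neighbour. Slc2a1 held ACGTG at -36, and this Pfkfb3 window held TGACG at -112 and -62 and ACGTG at -60. The Ldha window held the whole element TGACGTCA at -12, which holds TGACG on both strands, and ACGTG at -34. It also held CACGTG, the E-box bound by MYC, at -145 and -48, each of which holds ACGTG on both strands. The Slc16a1 window held CACGTG at -200, and the Hk1 and Rpia windows held none of the letters searched for. Slc2a3, with the largest rise, had no window and is in none of these counts. Over 35 of the 36 genes with a window, 14 (40%) held ACGTG in at least 1 window, against 18.5% of 27025 genes, and 8 (22.9%) held TGACG, against 19.8%. CACGTG was found for 4 (11.4%), against 6.86%, and TGACGTCA for 1 (2.86%), against 1.77%, counted on both strands. Of the 5 genes with a window that rose in D- cells at 6 h 4 held ACGTG, as did 1 of the 4 that fell and 8 of the 18 that were not called. In WT cells at 6 h ACGTG was held by 3 of the 5 that rose, 1 of the 5 that fell and 9 of the 17 that were not called. A match is a description of letters and not a binding site.

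Several regulators of these genes were called at 2 h in both lines. Hif1a, the oxygen-regulated subunit of HIF-1, lay at 10.14, 10.60, 10.21 and 10.25 on untreated D- arrays, at 11.56, 11.50 and 11.43 at 2 h, at 11.76, 12 and 11.67 at 6 h, and at 10.64, 11.65 and 11.27 at 24 h. Its WT values were 10.11, 9.85, 10.67 and 10.44 untreated, at 11.30, 12.12 and 12.11 at 2 h, at 11.23, 12.23 and 12.21 at 6 h, and at 11.34, 12.61 and 12.28 at 24 h. Every treated array lay above the untreated arrays of its line, and Hif1a was called at every time, with log2 changes of 1.20, 1.51 and 0.89 in D- cells and 1.57, 1.62 and 1.81 in WT cells (limma adjusted p of at most 0.0233). Its partner Arnt rose 2.68-fold in D- cells and 4.83-fold in WT cells at 2 h (adjusted p = 0.000951 and 4.27e-06) and was not called at 24 h. Untreated WT arrays of Arnt lay at 4.72 to 5.56, near the filter, where folds are uncertain. Myc, a driver of glucose metabolism in dividing cells, fell at every time, with log2 changes of -3.16, -1.65 and -1.52 in D- cells and -2.49, -2.11 and -2.16 in WT cells. Txnip, which restrains glucose uptake, was called at 24 h, 4.64-fold higher in D- cells (adjusted p = 0.000524) and 6.34-fold higher in WT cells (adjusted p = 2.89e-05). Foxo1, a forkhead factor held back by growth factor signalling, rose 7.56-fold in D- cells and 5.51-fold in WT cells at 2 h. Of the 16 tested regulators, 4 rose and 2 fell in D- cells and 3 rose and 4 fell in WT cells at 2 h, and 4 rose and 5 fell in D- cells and 5 rose and 5 fell in WT cells at 24 h. Of all genes 22.3% in D- and 25.1% in WT cells were called at 2 h, and 34.7% and 53.8% at 24 h.

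**Figure D5:**
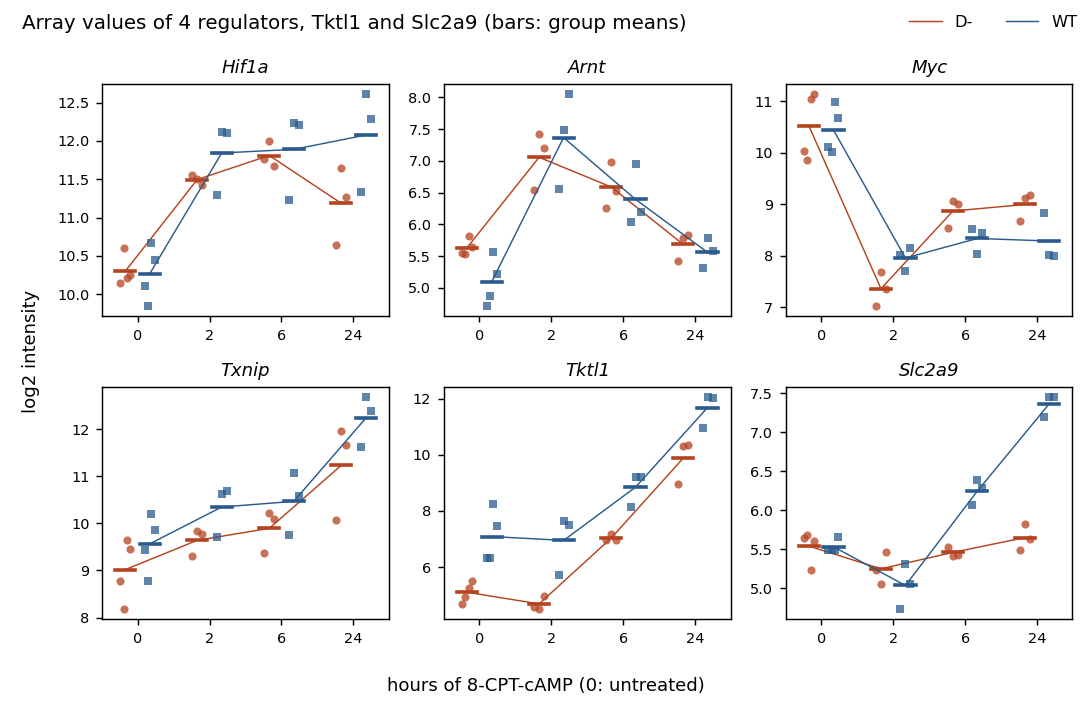
Log2 intensity on every array of 4 regulators (Hif1a, Arnt, Myc and Txnip) and of Tktl1 and Slc2a9 against hours of 8-CPT-cAMP (0 is untreated), D- as circles left of WT as squares, with bars at group means joined by lines. Hif1a and Arnt are up and Myc is down at 2 h in both lines, Tktl1 climbs after 2 h, and Slc2a9 climbs in WT cells.

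HIF-1 targets outside glycolysis were called in both directions, and a link to the RNA level of Hif1a was not tested. Of 16 tested, 3 rose and 1 fell in D- cells at 2 h, 4 rose and 1 fell at 6 h, and 5 rose and 3 fell at 24 h. In WT cells 3 rose and none fell at 2 h, 3 rose and 1 fell at 6 h, and 5 rose and 3 fell at 24 h. Of all genes 22.3%, 31.8% and 34.7% were called in D- cells and 25.1%, 38.2% and 53.8% in WT cells. Counted in both directions together, the calls at 2 and 6 h lay near or below this background. Called higher were 9.05%, 16.2% and 17.1% of all genes in D- cells and 11.2%, 19.1% and 26.4% in WT cells. Called lower were 13.3%, 15.6% and 17.6% in D- cells and 13.9%, 19.1% and 27.5% in WT cells. The 3 rises of 16 at 2 h were a larger share than that of all genes called higher in each line, on few genes. Ddit4, an inhibitor of mTOR signalling, rose at every time, 5.95-fold in D- cells and 3.29-fold in WT cells at 2 h. Ero1a, an oxidase of the endoplasmic reticulum, rose at every time, most at 6 h, 2.74-fold in D- cells and 3.87-fold in WT cells. Ndrg1, a stress-induced gene, rose 10.4-fold in D- cells and 2.81-fold in WT cells at 24 h (limma adjusted p = 0.000166 and 0.0436), and Bhlhe40, a repressor, fell in D- cells at 24 h (log2 change -1.45, adjusted p = 0.0357).

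Among 29 other tested genes of glucose and pentose phosphate metabolism, 3 rose and 5 fell in D- cells at 24 h, and 4 rose and 5 fell in WT cells, a smaller share than the 34.7% and 53.8% of all genes called. Tktl1, a transketolase-like gene, rose most. In D- cells it averaged 5.11, near the filter, untreated, 4.68 at 2 h, 7.03 at 6 h and 9.87 at 24 h, and in WT cells 7.09, 6.95, 8.85 and 11.69. At 24 h it was 27.3-fold higher in D- cells (limma adjusted p = 1.32e-07) and 24.2-fold higher in WT cells (adjusted p = 6.92e-08), and untreated D- cells had 0.253 of the level in untreated WT cells (adjusted p = 0.00906). Slc2a9, a urate and hexose transporter, rose 3.56-fold in WT cells at 24 h (adjusted p = 6.14e-10) and changed by 0.11 in D- cells, a difference of response of -1.72 ± 0.19 (adjusted p = 7.24e-06). Its D- arrays lay at 5.06 to 5.83 and its untreated WT arrays at 5.49 to 5.66, near the filter, where folds are uncertain. Prps1, which turns ribose 5-phosphate into the precursor of nucleotides, fell to 0.527 of the untreated level in D- cells and 0.284 in WT cells at 24 h, a difference of response of 0.89 (adjusted p = 0.00275). Eno3, the muscle-type enolase, fell at 6 and 24 h, to 0.365 in D- cells and 0.407 in WT cells at 24 h.

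Beyond Pdha1, 22 tested genes of the pyruvate dehydrogenase complex and the tricarboxylic acid cycle leaned downward at 24 h. Of these, 9 were called lower and none higher in D- cells, and 15 lower and none higher in WT cells, beside 17.6% and 27.5% of all genes called lower. Their median change was -0.20 in D- cells and -0.51 in WT cells, against -0.02 and 0.00 over all genes. Idh3a, the catalytic subunit of isocitrate dehydrogenase, fell to 0.548 of the untreated level in D- cells and 0.385 in WT cells (limma adjusted p = 9.47e-07 and 5.69e-10), a difference of response of 0.51 (adjusted p = 0.0209). Suclg2, a succinyl-CoA ligase subunit, fell to 0.474 in D- cells and 0.284 in WT cells. Got1, the cytosolic aspartate aminotransferase, was 1.91-fold higher in D- cells and 1.67-fold higher in WT cells at 2 h and lower in both at 24 h, while its mitochondrial counterpart Got2 fell at 6 and 24 h.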

How the data were processed

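RNA from 26 samples was hybridised to single-colour Affymetrix arrays. Per the submitters' processing notes, the authors summarised probe sets with GCRMA; the deposited intensity values are linear, from 2 to 83530.7, for GCRMA, no version and no statement on joint or separate normalization of the lines is given in the sources used here. Its quantile step hides any change common to most of the transcriptome, and dim values are compressed. Log2 of the deposited intensity was taken with no pseudocount. Of 22690 probe sets, 20383 carried a single gene symbol, 691 carried several and 1555 had none; 61 of 64 control probe sets were left out and the 3 of Gapdh kept. Probe sets at log2 5 (intensity 32) or more on at least 3 arrays were tested in R 4.3.3 with limma 3.58.1 (8 group means over 26 arrays, 18 residual degrees of freedom, two-sided), with Benjamini-Hochberg adjustment over 12727 probe sets in each contrast. Contrasts were each treated time against untreated, untreated D- against WT, the D- minus WT difference of response, and steps between treated times. The fit was tested on simulated data.

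Members, lists and tests were chosen with earlier results of these data known. Array values are given for genes with a called change of at least 1 on the log2 scale against untreated cells, between untreated lines or in a difference of response, plus Gapdh and Hif1a, and of each other list up to 4 called genes with the largest change are named, plus Myc, Txnip and Hif1a. Gpi1, Pfkfb1, Pfkfb4, Eno1 and G6pdx had no probe set listed under their symbol and were not analysed here. Alternatives were the filter, eBayes settings, array weights, the groups in the fit, normalization, a pseudocount of 16, other probe sets, the replicate number or array cluster as a block, fits within a cluster, and each array left out. Leaving out the pair of high arrays was added after seeing the data. Between untreated and treated cells, deviations from group means of same-numbered arrays correlated at 0.366 to 0.600 for replicate 1 and 0.103 to 0.363 for replicate 3. For replicate 2 they correlated at -0.244 to -0.468, so numbers do not pair those samples throughout. Between treated times they correlated at 0.301 to 0.655, and numbers were taken to pair. For D- replicate 2 from 6 to 24 h, however, 0.301 stood against 0.338 with another number. Figures were drawn with matplotlib 3.10.9 in Python 3.11.15.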

Additional observations from a re-analysis of the deposited data

Results flagged for a closer look

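Among untreated WT arrays, Hk2 lay at 10.28 on replicate 4, apart from 9.26, 9.07 and 9.06 on the others, and Pgk1 lay at 12.91 on replicate 2, apart from 13.21, 13.24 and 13.22. These were the 2 outlying arrays in 56 groups of 4 arrays looked at, of which chance alone sets apart about 1 in 20. The lines differed in their response at 24 h for Slc16a1, by 0.85 on the log2 scale (D- minus WT, limma adjusted p = 0.0221), and for Pdk3, by 0.59 (adjusted p = 0.00874), both tested as an interaction.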

How the results depend on the processing

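In the 10 comparisons against untreated cells, between untreated lines and of responses, 51 changes were called, and none reversed under any alternative run. Leaving out 1 array at a time ended 66 of 373 calls, and fitting only the groups compared ended 12 of 51. The replicate block ended none in the 10 comparisons and gained 7. Among the 14 counts of called genes, the block moved WT at 2 h to 4, where the numbers do not pair the arrays throughout. It moved D- from 2 to 6 h to 4, where the numbers were taken to pair. The block was fitted with the untreated arrays included in both cases. No call of the 21 between treated times was lost with the block. Array weights gave 4 for WT at 2 h, 5 for untreated D- against WT, 4 for the response at 24 h, and 6, 8, 9 and 17 for the steps D- 2 to 6 h, D- 6 to 24 h, WT 2 to 6 h and WT 6 to 24 h. The array cluster as a block gave 4 for WT at 2 h, 4 for the response at 24 h, 4 for D- 2 to 6 h and 8 for D- 6 to 24 h. Within the smaller cluster of 10 arrays the counts were 1, 1 and 2 for D- at 2, 6 and 24 h, 5 for WT at 6 h, and 0 for untreated D- against WT, the response at 24 h and all 4 steps. Fitting only the groups compared gave 7 for WT at 6 h, 1 for untreated D- against WT, 2 for WT 2 to 6 h and 6 for WT 6 to 24 h. Median centring gave 4 for D- 2 to 6 h, and no filter gave 3 for D- 6 to 24 h. The next brightest probe set, which 16 of the genes have, gave 6 and 5 for D- at 6 and 24 h, 6 and 5 for WT at 6 and 24 h, 1 for untreated D- against WT, 0 for the response at 24 h, and 1, 3, 0 and 4 for the steps in the order above. Without the pair of high arrays the untreated lines differed in 1 gene. Leaving out 1 array gave 2 to 3, 6 to 10 and 6 to 10 for D- at 2, 6 and 24 h, 1 to 3, 8 to 10 and 10 to 13 for WT, 1 to 2 for untreated D- against WT, 1 to 2 for the response at 24 h, and 2 to 3, 3 to 7, 2 to 5 and 5 to 10 for the steps.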

Other observations

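Hypoxia-induced genes outside glycolysis varied from array to array within a group, and those named were chosen after their values were seen. Bnip3, a mitochondrial protein known to be induced by low oxygen, lay at 9.20, 5.33, 8.14 and 7.14 on untreated D- arrays and at 9.84, 7.28, 7.12 and 9.48 on untreated WT arrays, a spread within a group of more than any change between group means. At 24 h it lay at 6.07, 9.52 and 6.96 on D- arrays and at 6.00, 7.82 and 6.35 on WT arrays. D- 24 h replicate 2 was the highest of its 3 arrays for 12 of 16 hypoxia genes, and untreated WT replicate 4 the highest of its 4 arrays for 9 of 16. Untreated D- replicate 1, which is not in the pair of high arrays, was the highest of its 4 arrays for 12 of 16 hypoxia genes. It was also the highest for 9 of the 28 glucose genes, against 18.4% of all genes. P4ha1, a collagen prolyl hydroxylase, lay at 9.42 on untreated WT replicate 4, against 7.04 to 8.09 on the other untreated WT arrays. The labels give no oxygen level or cell density at harvest for single samples, and the source of this spread was not tested.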
